A study of Saccharomyces cerevisiae with 12 samples.

Results

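The effect of a gcr1 null allele that budding yeast showed alike on raffinose, galactose and glucose was measured on all 12 dual-colour arrays of the series. Each sugar had 4 arrays, numbered 1 to 4, with raffinose and galactose at 3% and glucose at 2%. One channel held Cy5-labelled and the other Cy3-labelled total RNA, from cultures on the same sugar. The labels give the mutation as gcr1 null, and name neither the second strain nor the construction of the null allele. Culture number, growth phase and strain background were not stated in the labels used here. For each gene the deposited log2 ratios of its probes were averaged, then the 4 arrays of a sugar, then the 3 sugars. That mean was tested against 0 over all 5636 genes with limma's moderated test, and genes with an adjusted p (Benjamini-Hochberg) below 0.05 were called. A ratio kept the same sign on all 12 arrays for 1052 of the 5636 genes, 570 higher and 482 lower.

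Gcr1 is a DNA-binding activator that works with Gcr2 and Rap1 at the promoters of glycolytic genes, and Rap1 and Gcr1 also act at promoters of ribosomal protein genes. Glycolysis converts hexoses to pyruvate, and fermentation then converts pyruvate to ethanol. Cells with little glycolytic flux grow poorly on fermentable sugars, and budding yeast lowers ribosomal protein genes and raises stress genes in many conditions of slow growth.

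The direction of the ratios is not settled by the labels. Every value below was read as the strain labelled gcr1 null over the second strain, because Gcr1 is known to activate glycolytic genes, so the sign of the glycolytic values was assumed and not found. Replicates 1 and 2 differed systematically from replicates 3 and 4 in every sugar, although the labels list the same dyes for all arrays. In raffinose these pairs correlated at -0.507 to -0.340 over all probes and at 0.243 to 0.466 over probes with a gene name. In galactose the all-probe values were -0.143 to -0.051, and no arrays were turned there. Over genes, in the deposited signs, raffinose replicates 3 and 4 correlated at 0.618 to 0.697 with replicates 3 and 4 of galactose and glucose. Because of the all-probe values, results with raffinose replicates 3 and 4 turned in sign are given beside the main ones. The labels do not tie arrays to cultures, and dye-swapped repeats of a culture are among them, so the p-values, which treat the 12 arrays as independent, can be too low. The median ratio of an array lay between -0.188 and 0.296, and precision is limited by how many arrays there are.

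In the mean of the 3 sugars, 2056 genes were called higher (36.5% of those tested) and 1636 lower (29.0%), together 3692 genes (65.5%). The stricter description, the same sign on all 12 arrays, held for 10.1% of genes in the higher direction, 8.55% in the lower and 18.7% in either. All 1052 of these genes were called, and their mean was at least 0.211 in size. The sign on all arrays and the tests of the mean use the same values, so neither supports the other. A mean of at least 1 in size, a doubling, was found for 494 of them, split evenly into 247 higher and 247 lower. A mean of at least 2 was found for 64 higher and 22 lower genes. On every single array, 59 higher and 17 lower genes were at least 1 in size. With the 3 sugar means as the 3 values of the test, which asks whether an effect stands out from its variation between sugars, 197 genes were called higher (3.50%) and 216 lower (3.83%), 413 in all (7.33%), and 402 of them had the same sign on all 12 arrays. With replicates 1 and 2, and replicates 3 and 4, averaged within each sugar before the fit, the means called 1247 genes higher and 925 lower. With raffinose replicates 3 and 4 turned, 116 genes were above 0 on all arrays and 5 below it, and the means called 1776 genes higher and 1056 lower. By arithmetic none of the 1052 genes can be among the 116 or the 5, since turning reverses their sign on those arrays.

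**Figure D1:**
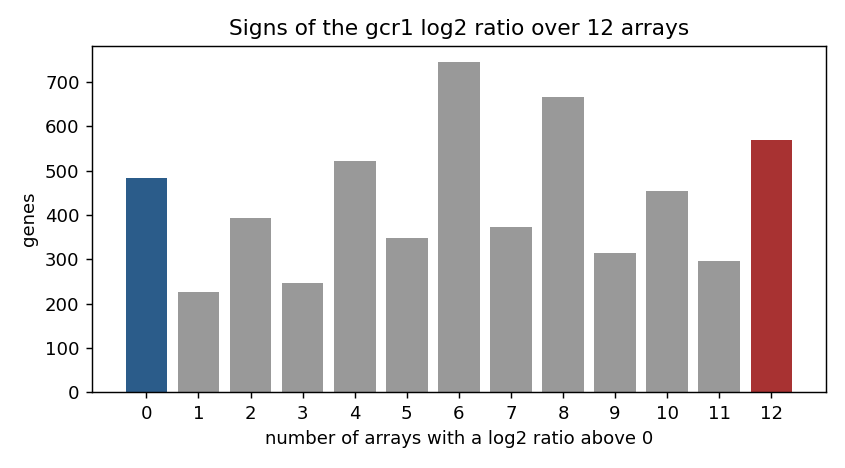
Number of genes (vertical axis) by the number of the 12 arrays on which their log2 ratio was above 0 (horizontal axis). The bars at the ends hold 484 genes above 0 on none of the arrays and 570 above 0 on all of them, and the middle bar at 6 arrays holds 744 genes. An exact 0 on an array keeps 2 of the 484 out of the 482 genes below 0 throughout.

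GCR1 itself had a positive log2 ratio on all 12 arrays. It read 2.04, 1.90, 1.36 and 1.38 on raffinose replicates 1 to 4. On galactose the values were 1.82, 1.70, 1.45 and 1.34, and on glucose 0.48, 0.49, 0.43 and 0.21. The raffinose and galactose arrays overlapped, and every glucose array was lower than all of them. The mean of 1.22 (SE 0.076, adjusted p = 3.43e-08 in limma) therefore goes against a null allele read as lower GCR1 RNA in the strain labelled gcr1 null. It was 0.76 with raffinose replicates 3 and 4 turned. Its adjusted p with the sugars as 3 values was 0.0596. Where the 2 GCR1 probes lie in relation to the allele was not analysed here, so this reading does not check the labels.

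The genes next to GCR1 in the R64 gene order did not share its sign over all arrays. GPI2, which acts in GPI anchor synthesis, had a mean of -0.47 (SE 0.10, adjusted p = 0.00116, and 0.0593 with pairs averaged), with 2 glucose arrays above 0. YTA6, an ATPase gene, had a mean of 0.11 (SE 0.11, adjusted p = 0.388) and was not called. Among 7 auxotrophic marker genes often altered in laboratory strains, URA3 was the one with the same sign on all arrays. URA3, which encodes a uracil synthesis enzyme, read 2.61, 2.65, 2.51 and 2.78 on raffinose replicates 1 to 4. It read 2.74, 2.70, 2.75 and 2.67 on galactose and 2.00, 1.88, 1.85 and 1.80 on glucose. Every glucose array was below the arrays of the other sugars, and the mean was 2.41 (SE 0.050, adjusted p = 2.08e-12). HIS3, of histidine synthesis, split by replicate number instead, with a mean of -1.55 on replicates 1 and 2 and of 0.85 on replicates 3 and 4, and was not called (adjusted p = 0.424). A call for HIS3 with the replicate number as a block (0.0319) was absent with the replicate number as a random block (0.536) and with pairs averaged (0.598). LEU2 was called higher, and TRP1, LYS2 and MET17 lower, each with arrays of both signs. With 1 value per replicate number the calls of LEU2 (0.0648), TRP1 (0.157) and MET17 (0.246) were lost. ADE2 was not called, at a mean of -0.02 (adjusted p = 0.833). Whether marker alleles differ between the strains cannot be told from the labels.

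Glycolytic genes held 3 of the 4 lowest means of all genes measured. Of 17 measured genes of the pathway, 12 were called lower and 3 higher, against 29.0% and 36.5% of all genes. On all 12 arrays 10 were below 0, against 8.55% of all genes. The median of the 17 means was -1.49, against 0.04 over all genes, and raffinose, galactose and glucose had medians of -1.41, -1.97 and -1.37. With raffinose replicates 3 and 4 turned, 11 members were called lower and 4 higher, with a median of -0.91. Over all 5636 genes that setting called 1056 lower and 1776 higher.

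The upper part of the pathway was mixed. GLK1, one of 3 genes for hexose-phosphorylating enzymes, was higher on all 12 arrays with a mean of 2.12 (SE 0.14, adjusted p = 4.83e-08). HXK1, a hexokinase gene, had sugar means of 0.73 in raffinose, -1.33 in galactose and 5.18 in glucose. HXK2, the main hexokinase gene on glucose, was not called, with a mean of -0.27 (adjusted p = 0.127). A replicate block gave HXK2 an adjusted p of 8.88e-05, against 0.379 with 1 value per replicate number, 0.183 with a random block and 0.359 with pairs averaged. PGI1, which encodes phosphoglucose isomerase, was lower on all arrays, at -1.49 (SE 0.11, adjusted p = 1.34e-07). PFK1 and PFK2, for the subunits of phosphofructokinase, were called lower at -0.41 (adjusted p = 0.0205) and -0.64 (0.00053). PFK1 had arrays above 0 in raffinose and galactose and PFK2 in raffinose. The call of PFK1 was lost with 1 value per replicate number (0.179) and with pairs averaged (0.159), and that of PFK2 was not (0.0418 and 0.0305).

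From aldolase to pyruvate kinase every main gene was below 0 on all 12 arrays. FBA1, the aldolase gene, had a mean of -1.80 (SE 0.21) and TPI1, for triosephosphate isomerase, of -2.62 (SE 0.18). TDH3 and TDH2, which encode glyceraldehyde-3-phosphate dehydrogenases, had means of -2.53 and -1.47. Their paralogue TDH1 was called higher at 0.72 (SE 0.20, adjusted p = 0.00707), with means of 1.39 on replicates 1 and 2 and 0.06 on replicates 3 and 4. Its call was lost with 1 value per replicate number (0.107) and with pairs averaged (0.0757). PGK1, for phosphoglycerate kinase, had a mean of -2.15 (SE 0.18). CDC19, the main pyruvate kinase gene, had a mean of -2.37 (SE 0.22), and its paralogue PYK2 was not called, at 0.28 (adjusted p = 0.0529). PYK2 had an adjusted p of 0.00222 with the replicate block but of 0.223 with 1 value per replicate number, 0.202 with a random block and 0.241 with pairs averaged. Paralogues with similar sequence can share probe signal on arrays, so values of TDH2 and TDH3, of ENO1 and ENO2, and of paired ribosomal protein genes are uncertain in part.

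GPM1, which encodes phosphoglycerate mutase, had the lowest mean of all genes. It read -4.67, -4.60, -6.13 and -6.17 on raffinose replicates 1 to 4. On galactose the values were -4.19, -3.86, -5.66 and -5.72, and on glucose -3.88, -4.07, -5.80 and -6.11. Replicates 3 and 4 were lower than replicates 1 and 2 in each sugar, and among arrays of one number raffinose was the lowest. The sugars overlapped, but raffinose replicates 3 and 4 lay below every galactose and glucose array. The mean was -5.07 (SE 0.25, adjusted p = 3.79e-09), a 33.6-fold ratio, and -3.02 with the raffinose arrays turned. The 3 sugar means of GPM1 spanned 0.54, with an adjusted p of limma's moderated F test of 0.709, and of 0.00551 with the replicate number as a block.

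ENO2, the major enolase gene on glucose, came next. Its raffinose arrays read -4.44, -4.39, -5.73 and -5.63, and its galactose arrays -3.73, -3.70, -5.05 and -5.43. Its glucose arrays read -4.25, -4.61, -6.39 and -6.23. The sugars overlapped here too, and the split between replicate numbers was larger than that between sugars. The mean was -4.96 (SE 0.23, adjusted p = 2.29e-09). ENO1, its paralogue, had a mean of -3.77 (SE 0.15). Beyond pyruvate, ADH1, for the alcohol dehydrogenase that makes ethanol, had a mean of -2.13 (SE 0.20, adjusted p = 1.37e-06) and was below 0 on all arrays. It was the only one of 8 measured fermentation genes called lower. Of that list 3 were called higher, against 36.5% of all genes, and 4 were not called, and the median was 0.28.

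The difference between sugars depended on the gene and on how the replicate numbers were treated. Of the 17 genes, 13 had sugar means within 1 of each other, while those of HXK1, HXK2 and GLK1 spanned 6.51, 2.54 and 2.35. The F test called 6, against 56.7% of all genes. With the replicate number as a block it called 15, against 83.7% of all genes. Turning raffinose replicates 3 and 4 gave 13 calls, and the median span was 2.91. ENO2 (adjusted p = 0.373 without and 0.000566 with the block), ENO1 (0.138 and 0.0015), TPI1 (0.402 and 0.000564), TDH3 (0.122 and 0.000262) and TDH2 (0.304 and 0.000734) changed their call in this way. So did PGK1 (0.636 and 0.00673), FBA1 (0.482 and 0.00324) and PFK1 (0.518 and 0.00567). CDC19 did not, at 0.964 and 0.709, with sugar means of -2.35, -2.30 and -2.46. Its 95% half-width for a difference between sugars was 1.16 without the block, so its sugar means are not shown to be equal.

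**Figure D2:**
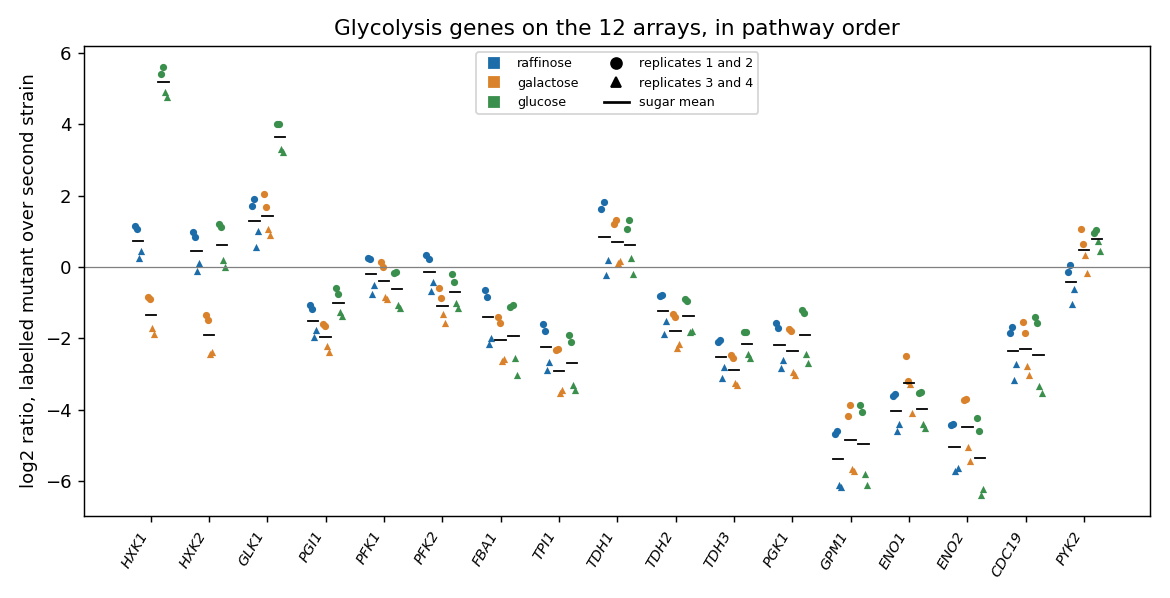
Log2 ratio on each array (vertical axis) of the glycolytic genes in pathway order (horizontal axis), with colours for the 3 sugars, circles for replicates 1 and 2, triangles for replicates 3 and 4, and short lines at the sugar means. GPM1 and ENO2 lie lowest, near -5 in every sugar, while HXK1 spreads from -1.33 in galactose to 5.18 in glucose.

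The partners of Gcr1 moved in both directions. TYE7, which encodes another activator of glycolytic genes, was higher on all 12 arrays with a mean of 2.07 (SE 0.095, adjusted p = 2.19e-09). Its sugar means were 1.77 in raffinose, 2.80 in galactose and 1.63 in glucose. RAP1 was lower on all 12 arrays, at -0.80 (SE 0.083, adjusted p = 2.85e-06). GCR2 was called higher at 0.18 (adjusted p = 0.0441, and 0.338 with pairs averaged), but its glucose mean was -0.59 against 0.48 in raffinose and 0.64 in galactose. ABF1 and REB1, general regulatory factors, were called lower at -0.51 (adjusted p = 0.00227) and -0.36 (0.000486), calls lost with pairs averaged (0.0648 and 0.0696). GAL11, of the Mediator tail, was called higher at 0.22 (adjusted p = 0.0174, and 0.25 with pairs averaged). PDC2, an activator of pyruvate decarboxylase genes, was not called at 0.20 (adjusted p = 0.0856). With the replicate block PDC2 had an adjusted p of 0.00576, with 1 value per replicate number 0.294 and with a random block 0.27.

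At the other end of the ranking stood GPM2, a homologue of GPM1. It read 4.36, 4.58, 4.24 and 4.16 on raffinose replicates 1 to 4. It read 4.58, 4.37, 4.30 and 4.21 on galactose, and 5.70, 6.15, 5.97 and 6.13 on glucose. Raffinose and galactose overlapped and glucose lay above both, with no split by replicate number of the kind seen for GPM1. Its mean of 4.90 (SE 0.064, adjusted p = 2.93e-14) was the highest of all genes and a 29.8-fold ratio. The mean was 3.50 with raffinose replicates 3 and 4 turned.

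The next genes in rank were of several kinds. YRO2, for a membrane protein related to Hsp30, had a mean of 4.21 (SE 0.069). SPG4, named for survival in stationary phase, had a mean of 3.87 (SE 0.17) and sugar means of 4.09, 3.36 and 4.17, with an F test adjusted p of 0.181 and a 95% half-width of 0.90 for a difference between sugars. IMD2, for an IMP dehydrogenase of guanine nucleotide synthesis, had a mean of 3.46 (SE 0.080). ADH5, a minor alcohol dehydrogenase gene, had a mean of 3.02 (SE 0.098). SNZ1, a vitamin B6 synthesis gene, had a mean of 2.95 (SE 0.15), and its sugar means were 1.27, 2.94 and 4.63 in raffinose, galactose and glucose.

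CIT3 and PDH1, adjacent genes on chromosome XVI (YPR001W and YPR002W) linked to the methylcitrate pathway of propionate use, had nearly equal means. CIT3, a mitochondrial citrate and methylcitrate synthase gene, read 3.82, 3.72, 3.61 and 3.65 on raffinose, 2.84, 2.75, 2.84 and 2.70 on galactose and 3.18, 3.47, 4.0 and 4.0 on glucose. Its mean was 3.38 (SE 0.075, adjusted p = 2.93e-12), and galactose lay below the other two sugars on every array. PDH1 had a mean of 3.36 (SE 0.091), with sugar means of 3.00, 2.89 and 4.20 in raffinose, galactose and glucose.

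Genes of the retrograde response, by which yeast raises citrate and glutamate synthesis when mitochondria work poorly, included several higher ones. Of 8 measured targets and regulators 7 were called higher, against 36.5% of all genes, and none lower. On all 12 arrays 4 were above 0, against 10.1% of all genes. With pairs averaged 4 were called higher, against 1247 of all 5636 genes. With the sugars as 3 values 3 were, against 3.50% of all genes. CIT2, the peroxisomal citrate synthase gene and standard readout of this response, read 2.10, 1.89, 1.20 and 1.27 on raffinose, 4.95, 4.66, 4.31 and 4.11 on galactose and 4.04, 3.91, 3.38 and 3.22 on glucose. The 3 sugars did not overlap, with galactose highest and raffinose lowest. Its mean was 3.25 (SE 0.11, adjusted p = 1.5e-10), and 2.84 with the raffinose arrays turned. DLD3, a dehydrogenase gene also used as a readout, took the same order, with sugar means of 1.88, 3.95 and 3.04 in raffinose, galactose and glucose.

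In the tricarboxylic acid cycle 15 of 16 genes were called higher and none lower, against 36.5% and 29.0% of all genes. Only 3 had the same sign on all arrays, all of them higher, against 10.1% of all genes. The medians of the list were 0.55 in raffinose, -0.32 in galactose and 1.86 in glucose. Only 2 of the 16 were called with the sugars as 3 values. CIT1, the main mitochondrial citrate synthase gene, was one of those 3, with a mean of 2.38 (SE 0.14). The respiratory chain had 29 of 36 genes called higher, against 36.5% of all genes, and 2 above 0 throughout, against 10.1%. Its median was -0.36 in galactose and 1.64 in glucose. With pairs averaged, which called 1247 of all 5636 genes higher, 22 were called higher. With the sugars as 3 values, which called 3.50% of all genes higher, 2 were. COX5B, for a subunit of cytochrome c oxidase used at low oxygen, was one, with a mean of 1.67 (SE 0.065). ACS1, an acetyl-CoA synthetase gene of growth without glucose, had a mean of 1.91 (SE 0.073) and was above 0 on every array.

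PET122, which encodes a mitochondrial activator of COX3 translation, was the third lowest gene. It read -3.77, -3.73, -4.91 and -4.88 on raffinose replicates 1 to 4. It read -3.42, -3.07, -4.80 and -4.95 on galactose, and -3.26, -3.73, -4.96 and -5.31 on glucose. As for GPM1, the sugars overlapped and replicates 3 and 4 were lower. The mean was -4.23 (SE 0.22, adjusted p = 6.07e-09), and -2.60 with raffinose replicates 3 and 4 turned, where it was also the third lowest. In the deposited signs the sugar means spanned 0.27 (F test adjusted p = 0.876, and 0.212 with the block). The neighbours of PET122 in the gene order were not alike, with OXA1, of mitochondrial membrane insertion, at -0.63 (SE 0.097) and YER152C not called at 0.19 (adjusted p = 0.083, and 0.00639 with the block). YER152C was not called with 1 value per replicate number (0.293) or with pairs averaged (0.364). Next to GPM1 lay NNR2, for a repair enzyme of damaged nicotinamide cofactors, with a mean of 2.03 (SE 0.14), opposite in sign to GPM1.

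The largest group of lower genes was that of cytosolic ribosomal proteins. Of 135 measured genes 134 were called lower and none higher, against 29.0% and 36.5% of all genes, and 130 were below 0 on all 12 arrays. They were 130 of the 482 genes lower throughout. None of them was among the 5 genes below 0 on all arrays once raffinose replicates 3 and 4 were turned. For the 130 this was fixed in advance, because turning an array reverses every sign on it, so it does not test them. On the 8 galactose and glucose arrays alone, which that choice does not touch, 134 were below 0 throughout, of 902 such genes in all. The list's median was -1.63, and -1.02, -1.83 and -2.10 in raffinose, galactose and glucose. It was -1.17 on replicates 1 and 2 and -2.06 on replicates 3 and 4. With raffinose replicates 3 and 4 turned, 134 genes were called lower, against 1056 of all 5636 genes, with a median of -1.12. With the sugars as 3 values 130 were called lower, against 3.83% of all genes. A difference between sugars was called by the F test for 81, against 56.7% of all genes, and for 133 with the replicate number as a block, against 83.7%.

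RPL11A, for a protein of the large subunit, was the lowest member. It read -1.30, -1.68, -2.21 and -2.26 on raffinose, -2.58, -2.35, -3.02 and -2.78 on galactose and -2.74, -2.91, -2.83 and -3.25 on glucose. All raffinose arrays were above all others, and galactose and glucose overlapped. The mean was -2.49 (SE 0.094, adjusted p = 3.4e-10). RPS14B, of the small subunit, was among the most constant lower genes, with sugar means of -1.70, -1.79 and -1.88. RPL20A was among the least constant, with -0.92, -2.09 and -2.87 in raffinose, galactose and glucose.

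Histone genes were called lower for 10 of 10 members, against 29.0% of all genes. On all arrays 6 were below 0, against 8.55% of all genes, and the list's median was -1.08. HTA1, a histone H2A gene, had a mean of -1.54 (SE 0.11), and its F test adjusted p was 0.163, and 0.0116 with the block. With the raffinose arrays turned 9 histone genes were called lower, against 1056 of all 5636 genes. With the sugars as 3 values 5 were, against 3.83% of all genes. Mitochondrial ribosomal protein genes were called lower for 60 of 66 and higher for 1, against 29.0% and 36.5% of all genes. Of these 66, 23 were below 0 throughout, against 8.55% of all genes, and the median was -0.65. The number called lower was 43 with the raffinose arrays turned, 44 with pairs averaged and 4 with the sugars as 3 values. Over all 5636 genes these numbers were 1056, 925 and 216. MRP2 was the lowest of the 66, at -1.54 (SE 0.076), with -2.25 in galactose and -0.80 in glucose.

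Ribosome biogenesis factors, which build ribosomes in the nucleolus, were called lower for 64 of 96 genes, against 29.0% of all genes, and higher for 4. Yet only 4 were below 0 on all arrays, against 8.55% of all genes. With pairs averaged, which called 925 of all 5636 genes lower, 42 were called lower. With the sugars as 3 values, which called 3.83% of all genes lower, 1 was. Their medians were -0.01 in raffinose, 0.09 in galactose and -1.35 in glucose. GAR1, of a nucleolar RNA modification complex, was one of the 4, with a mean of -1.34 (SE 0.13) and an F test adjusted p of 0.107, and of 5.1e-05 with the block. Translation factors were called lower for 26 of 37, against 29.0% of all genes. With pairs averaged 16 were, against 925 of all 5636 genes. Among the 37 translation factors 1 was below 0 throughout, against 8.55% of all genes. Subunits and factors of RNA polymerases I and III were called lower for 16 of 32 and higher for 5, against 29.0% and 36.5%. The proteasome had 5 of 33 genes called higher and 3 lower, against 36.5% and 29.0% of all genes, and 25 not called.

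General stress genes held many of the higher values. Of 37 measured genes 33 were called higher and 3 lower, against 36.5% and 29.0% of all genes. On all 12 arrays 23 were above 0, against 10.1% of all genes, and the median was 1.56. In raffinose, galactose and glucose it was 0.95, 1.51 and 2.21. With the sugars as 3 values 20 were called higher, against 3.50% of all genes. With raffinose replicates 3 and 4 turned 33 were, against 1776 of all 5636 genes, with a median of 1.26. CTT1, the cytosolic catalase gene, read 2.02, 1.95, 1.25 and 1.46 on raffinose, 3.47, 2.92, 2.94 and 2.45 on galactose and 3.56, 3.71, 3.55 and 3.57 on glucose. Raffinose was lowest, and all glucose arrays were above all galactose arrays. MSC1 had a mean of 2.93 (SE 0.12) and was also above 0 throughout.

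Trehalose and glycogen genes, which make and use storage carbohydrate, were called higher for 18 of 21 members and lower for 1, against 36.5% and 29.0%. Above 0 on all arrays were 11 of them, against 10.1% of all genes, and the median was 1.14. TSL1, a subunit of trehalose synthase, was the highest, with a mean of 1.98 (SE 0.081) and sugar means of 1.03, 2.25 and 2.67 in raffinose, galactose and glucose. Gluconeogenesis and glyoxylate genes were called higher for 12 of 20 and lower for 5, with 5 above 0 throughout, beside the same shares of all genes.

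Lists tied to particular sugars were small. No galactose gene of 8 and no sucrose or maltose gene of 10 had the same sign on all arrays. The 15 hexose transporter genes had 2 higher and 1 lower, near the 18.7% of all genes with the same sign. For lists of this size such counts are not read as a result. For the lists that follow, the shares of all genes were 29.0% called lower and 36.5% higher, and 8.55% and 10.1% of the same sign throughout. Genes of amino acid metabolism had 31 of 61 genes called lower and 15 higher, with 9 and 5 of the same sign throughout. Cell wall genes had 27 of 47 called lower and 12 higher, with 10 and 2. Purine and guanine nucleotide genes had 6 of 15 called lower and 5 higher. Pheromone response genes had 16 of 37 called higher and 7 lower, and phosphate genes 5 of 21 higher and 7 lower. Ergosterol genes had 8 of 23 called lower and 2 higher, and aminoacyl-tRNA synthetases 9 of 20 lower and none higher. The counts called lower for phosphate and ergosterol genes, and higher for pheromone and purine genes, lie near the shares of all genes. In the other direction the counts lay below the share for ergosterol (2 of 23 higher), phosphate (5 of 21 higher) and pheromone genes (7 of 37 lower). For purine genes (6 of 15 lower) the count lay above it. No effect is read from the counts near the shares, and the others were not tested.

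**Figure D3:**
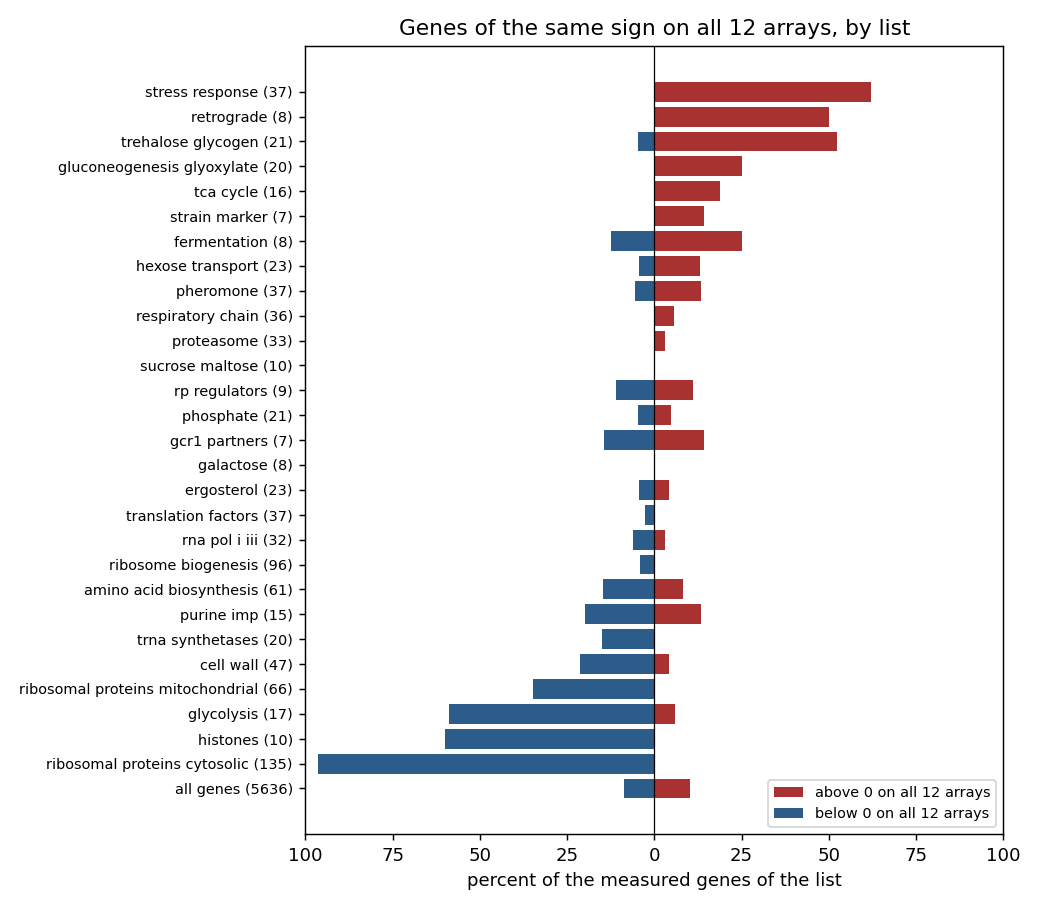
For each gene list (rows, with the number of measured genes), the percent of members above 0 on all 12 arrays (red bars to the right) and below 0 on all 12 (blue bars to the left). Cytosolic ribosomal proteins reach furthest left with 130 of 135 genes and stress genes furthest right with 23 of 37, against 8.55% and 10.1% of all 5636 genes in the bottom row. With raffinose replicates 3 and 4 turned, which the plot does not show, these counts are 0 and 2. Turning takes every plotted gene out of its bar by arithmetic, so the turned counts do not test the bars.

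Together the lists held 76 of the 570 genes higher throughout (13.3%) and 210 of the 482 lower throughout (43.6%). Most higher genes thus belonged to none of the lists.

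Sharing a sign did not mean sharing a size. The median gene of the same sign on all arrays had sugar means spanning 0.69, against 0.79 over all genes, and the median 95% half-width of a difference between sugars was 0.47. The F test called 539 of the 1052 genes (51.2%), against 56.7% of all genes tested. It called 841 with the replicate number as a block, against 83.7% of all genes, and 75 with pairs averaged, against 10.7% of all genes. Turning raffinose replicates 3 and 4 gave 726 calls, and the median span was 1.42, against 1.04 over all genes. Sugar means lay within 0.5 of each other for 347 genes and further apart than 1 for 300. The F test called 314 of the 570 higher genes (55.1%) and 225 of the 482 lower genes (46.7%). A span over 2 was reached by 31 higher and 2 lower genes. The largest size was found in glucose for 523 genes, in galactose for 396 and in raffinose for 133. These counts became 588, 462 and 2 once raffinose replicates 3 and 4 were turned. For genes of the same sign throughout, turning makes values cancel in the raffinose mean by arithmetic. The fall to 2 follows from that and does not measure the size in raffinose. The same cancelling enters the turned span of 1.42. The median size of a sugar mean was 0.79 for raffinose and 1.06 for both galactose and glucose. Among genes with a mean of at least 1 in size, 192 of 247 higher and 136 of 247 lower ones were called by the F test. The difference between the 2 directions was not tested.

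**Figure D4:**
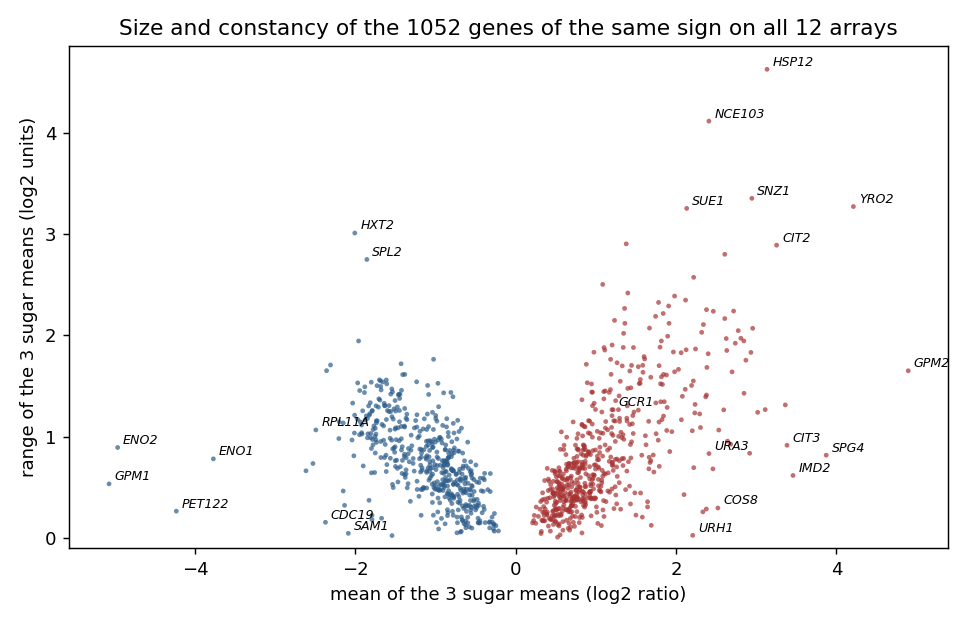
Span of the 3 sugar means (vertical axis, log2) against the mean of the 3 sugars (horizontal axis, log2) for the 1052 genes of the same sign on all 12 arrays. Genes at the right, such as HSP12 at a span of 4.63, spread upward, while GPM1 at the far left has a span of 0.54.

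The most constant genes were chosen as those with the smallest span relative to the mean among genes of at least 1 in size, so their spans are a description. They hold for the deposited signs. Turning raffinose replicates 3 and 4 made values cancel in the raffinose mean, and so widened the span of URH1 to 1.91 and that of SAM1 to 2.29. URH1, for a uridine hydrolase, read 2.64, 2.41, 1.81 and 2.01 on raffinose, 2.47, 2.32, 2.05 and 1.93 on galactose and 2.35, 2.16, 2.28 and 2.07 on glucose. The sugars overlapped, with means of 2.22, 2.19 and 2.22. Its overall mean was 2.21 (SE 0.080), and differences between sugars up to 0.43 were within the 95% half-width. SAM1, for S-adenosylmethionine synthetase, read -1.92, -1.88, -2.42 and -2.08 on raffinose, -1.86, -2.06, -2.15 and -2.40 on galactose and -2.04, -2.19, -1.98 and -2.06 on glucose. Its mean was -2.09 (SE 0.066), and its sugar means spanned 0.05. YAR068W, an open reading frame with no role given here, had a mean of -1.54 and a span of 0.03.

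Further constant genes were DIP5, for an amino acid permease of glutamate and aspartate, with a mean of 2.34 and a span of 0.26. COS8, of a subtelomeric gene family, had a mean of 2.52 and a span of 0.30. YGP1, for a secreted glycoprotein of stationary phase, had a mean of 2.38 and a span of 0.29. YJR149W had a mean of 1.69 and a span of 0.13. The half-widths for these 4 genes were 0.55, 0.46, 0.71 and 0.32, each larger than the gene's span.

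**Figure D5:**
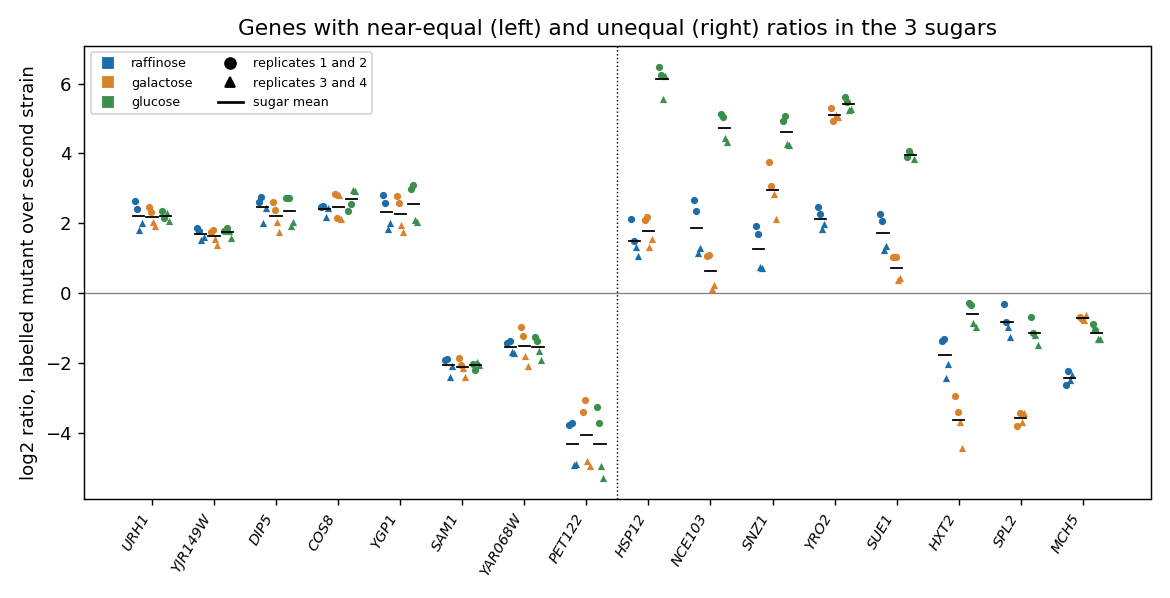
Log2 ratio on each array (vertical axis) of genes with near-equal (left) and unequal (right) sugar means (horizontal axis), with colours for the 3 sugars, circles for replicates 1 and 2, triangles for replicates 3 and 4, and short lines at the sugar means. The sugars of URH1 and SAM1 overlap around 2.21 and -2.09, and those of HSP12 separate into means of 1.499, 1.783 and 6.124 in raffinose, galactose and glucose.

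The least constant genes were likewise chosen by their span. HSP12, a small heat shock protein gene, read 2.13, 1.49, 1.33 and 1.05 on raffinose, 2.09, 2.17, 1.33 and 1.55 on galactose and 6.49, 6.24, 5.55 and 6.22 on glucose. Raffinose and galactose overlapped, and glucose lay far above them. NCE103, for carbonic anhydrase, had sugar means of 1.87, 0.63 and 4.74 in raffinose, galactose and glucose. SUE1, of cytochrome c turnover in mitochondria, had 1.73, 0.71 and 3.96 in the same order. Both were lowest in galactose and highest in glucose.

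Lower genes with a wide span differed in which sugar stood lowest. HXT2, a high-affinity glucose transporter gene, had sugar means of -1.78, -3.62 and -0.61 in raffinose, galactose and glucose. SPL2, of phosphate transport control, had -0.84, -3.59 and -1.14, so that galactose stood apart. MCH5, a riboflavin transporter gene, was lowest in raffinose at -2.43, with -0.71 and -1.15 in galactose and glucose. URA1, for dihydroorotate dehydrogenase of uracil synthesis, was lowest in glucose, with -1.45, -2.33 and -3.16.

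A called mean did not always stand for an effect in all sugars. The 3 sugar means shared a sign for 2705 genes (48%), and of the 3692 called genes 1230 (33.3%) had sugar means of both signs. Glucose alone had the other sign for 533 of these, galactose for 380 and raffinose for 317. Across genes the sugar means correlated at r = 0.589 for raffinose with galactose, 0.590 for raffinose with glucose and 0.439 for galactose with glucose. These are values across genes, which are not independent replicates, of arrays that share the split by replicate number.

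HXK1 was the plainest such case, reading 1.14, 1.07, 0.25 and 0.46 on raffinose, -0.84, -0.90, -1.71 and -1.89 on galactose and 5.42, 5.60, 4.91 and 4.78 on glucose. Its mean of 1.52 (SE 0.12, adjusted p = 3.15e-07) describes none of the sugars, and without glucose it was -0.30. SUC2, the invertase gene, had sugar means of -1.59, -4.44 and 0.50 and was called lower at -1.85. CHA1, for a serine and threonine deaminase, had 0.08, -2.84 and -4.19 and was called lower at -2.32. PIR3, a cell wall protein gene, had -1.47, 2.72 and 3.49 and was called higher at 1.58. With the sugars as 3 values none of these 4 was called in limma, with adjusted p from 0.0841 for CHA1 to 0.396 for HXK1. These 3 genes beside HXK1 were singled out after their values were seen.

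Size also followed the replicate numbers. Genes lower throughout had a median of -0.77 on replicates 1 and 2 and of -1.27 on replicates 3 and 4, and 446 of 482 were larger in size on the latter. Genes higher throughout had medians of 1.02 and 0.82, and 148 of 570 were larger in size on replicates 3 and 4. Over all genes the medians were 0.17 and -0.07. The part of this shift in the results was not tested.

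Probes of one gene mostly shared the sign. Of the 343 higher genes with at least 2 probes, 288 had every probe above 0 on all 12 arrays, and of 301 lower genes 263 had every probe below it. Genes of the 2 directions lay on all 16 chromosomes, with shares of 8.1% to 15.1% higher and 4.1% to 11% lower. A direct neighbour that was higher throughout was found for 137 of the higher genes (24%) and for 18.5% of other genes. For lower genes a lower neighbour was found for 111 (23%), against 15.7% of others. These shares are descriptions without a test.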

How the data were processed

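Dual-colour arrays of Saccharomyces cerevisiae were labelled by linear amplification, per the labels. The deposited table holds 1 log ratio per probe and array, taken as log2 from the size of the values. Normalization by the authors, the log base, the channel of the mutant and dye-swap handling remain not given in the sources used here. Of 10807 probes 9271 had 1 gene in the platform annotation, none several, and 1536 are unnamed here. All 9271 matched the R64 gene table, used for names and gene order. Probes of a gene were averaged to give 5636 genes, 2026 with 1 probe, 3592 with 2 and 18 with more. A gene needed values on 3 arrays of each sugar, and 5635 had all 12. No further normalization was applied.

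One mean per sugar was estimated from all 12 arrays by lmFit and eBayes of limma 3.58.1, run in R 4.3.3. The mean of the 3 was tested against 0 and differences between them by a moderated F test, with Benjamini-Hochberg adjustment over 5636 genes and a threshold of 0.05. Single sugars, replicates and orientations were left out in turn, and other ways of averaging, centring and blocking were tried. The fit was also run on simulated independent arrays without the split by replicate number. The outcome of that run is not given here.

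After subtraction of sugar means, arrays with one number in different sugars correlated at r = 0.522 to 0.893. All exceeded 0.1, the limit set for pairing. Every sugar shares the split of replicates 1 and 2 from replicates 3 and 4, which raises these correlations whatever the number. The check therefore cannot tell which arrays pair, and the labels are silent. The main fit used no pairing, and blocks by replicate number are given as alternatives. Of the unnamed spots, 114 were over 5 in size on at least 6 arrays, and all 114 changed sign between replicates 1 and 2 and replicates 3 and 4. The correlation rule on arrays of opposite sign applies to raffinose over all probes, so values with replicates 3 and 4 turned are given there.

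Members and gene lists were chosen with earlier results of these data known. Named genes were GCR1, the 12 highest and 12 lowest genes of the same sign on all arrays, the 6 most and 6 least constant in each direction, glycolytic, partner and marker genes, up to 4 called genes of each other list, and neighbours of GCR1 and of the 3 highest and 3 lowest genes. SUC2, PIR3 and CHA1 were also within the lists.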

Additional observations from a re-analysis of the deposited data

Results flagged for a closer look

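CTT1 on glucose replicate 2, at 3.71, lay further from its 3 fellow arrays than a test for single outlying values in a group of 4 allows, while the whole group spanned 3.55 to 3.71. Chance marks about 1 group in 20.

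A difference between the 3 sugars was called by limma's moderated F test for 3195 genes. Among genes named in the text the following spans of the 3 sugar means (log2, highest minus lowest) passed it.

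In glycolysis and fermentation the span was 6.51 for HXK1, 2.54 for HXK2, 2.35 for GLK1, 0.97 for PGI1, 0.96 for PFK2, 1.22 for PYK2, 1.24 for ADH5 and 1.65 for GPM2. GCR1 itself spanned 1.27. Among its partners GCR2 spanned 1.23, RAP1 0.83, TYE7 1.17, REB1 1.09 and GAL11 0.56.

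Among marker genes the span was 0.83 for URA3, 1.16 for LEU2, 1.44 for LYS2, 0.80 for ADE2 and 1.18 for MET17. Among neighbours of ranked genes it was 1.04 for YTA6, 1.67 for NNR2 and 1.69 for YER152C.

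For ribosomal protein genes the span was 1.07 for RPL11A, 1.65 for RPL9A, 1.95 for RPL20A and 1.44 for the mitochondrial MRP2. Genes of mitochondrial and acetyl-CoA metabolism spanned 2.89 for CIT2, 2.25 for CIT1, 0.92 for CIT3, 1.31 for PDH1, 2.07 for DLD3, 2.07 for COX5B, 2.12 for ACS1 and 3.25 for SUE1.

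Stress and storage genes spanned 4.63 for HSP12, 1.92 for CTT1, 1.83 for MSC1, 1.64 for TSL1 and 3.27 for YRO2. The remaining genes spanned 3.35 for SNZ1, 4.11 for NCE103, 3.01 for HXT2, 2.75 for SPL2, 1.72 for MCH5, 1.71 for URA1, 0.62 for IMD2, 4.94 for SUC2, 4.28 for CHA1 and 4.96 for PIR3.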

How the results depend on the processing

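Counts of called genes depended on how arrays were combined, and the cause was not tested except where the setting itself gives it. With replicates 1 and 2, and 3 and 4, averaged first, 1247 genes were called higher, 925 lower and 601 for a difference between sugars. Averaging 1 with 3 and 2 with 4, or 1 with 4 and 2 with 3, gave 4931 and 5390 for the latter. The sugars as 3 values gave 197 higher, 216 lower, 5 histone and 20 stress genes. With 1 value per replicate number as a replicate block 1026 genes were called lower. A mean of at least 1 in size left 330 and 289. With raffinose replicates 3 and 4 turned, 1056 were called lower, and 116 and 5 genes had the same sign throughout. By arithmetic these are other genes than those of the same sign in the deposited values. Replicates 1 and 2 alone gave 4891 for the F test and 1505 higher and 756 lower of the same sign, and replicates 3 and 4 alone gave 2609 called lower and 1086 and 1671 of the same sign. These fits on part of the replicates, and list counts under every setting, were added after the data were seen. Centring each array gave 778 lower throughout, and a size of at least 0.2 on every array left 332 and 280. Fitted as a replicate block, the array numbers gave 2442 genes called higher, 2033 lower and 4717 for the F test, and as a random block 1558 higher and 1238 lower. Leaving out 1 array gave 1920 to 2133 called higher, 1478 to 1710 lower, 2792 to 3355 for the F test, 573 to 684 and 482 to 607 of the same sign, and 11 to 12 glycolytic, 134 ribosomal protein, 10 histone and 33 stress genes. Means of single genes changed sign for PFK1 (0.051), HXK2 (0.22), ADE2 (0.20) and MET17 (0.11) on replicates 1 and 2 alone, for HIS3 (0.85), TRP1 (0.072) and YTA6 (-0.18) on replicates 3 and 4 alone, for MET17 with raffinose turned (0.032), for HXK1 without glucose (-0.30), and for HXK2 (0.55) and GCR2 (-0.053) without galactose. The number of arrays and the unknown sharing of cultures limit the precision.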
